A study of Homo sapiens with 2 samples.

Results

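The G1 cyclins, kinases and inhibitors described here are 10 human genes chosen by name: the D cyclins CCND1, CCND2 and CCND3, the kinases CDK4 and CDK6, the kinase inhibitors CDKN1A, CDKN1B, CDKN2A and CDKN2C, and the retinoblastoma gene RB1. Every probe set that the platform annotation ties to exactly 1 gene symbol, that of a member, was taken, which gave 19 probe sets for 9 of the 10 genes, out of 29493 probe sets with 1 symbol for 16716 genes. CDKN2C has no probe set by this rule, so no value is given for it. The measurements are messenger RNA signals from 2 samples of a human B-lymphoblastoid line, that is, blood B cells which Epstein-Barr virus (EBV) has driven into unlimited growth. The labels place both samples in 1 group, as replicates 1 and 2, with no treatment, time point or second genotype. The titles spell the line GM06690 and the growth protocol GM06990. Each sample was hybridised to 1 Affymetrix Human Genome U133 Plus 2.0 array.

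These genes form the switch that commits a cell to DNA replication. A D cyclin binds CDK4 or CDK6, and the active kinase phosphorylates the pocket protein RB1, which then releases E2F transcription factors to switch on the genes of S phase. The INK4 inhibitors, among them the products of CDKN2A and CDKN2C, bind CDK4 and CDK6 themselves, whereas the CIP/KIP inhibitors, encoded by CDKN1A and CDKN1B, bind cyclin and kinase together and also restrain CDK2. In EBV-transformed B cells the switch is kept on by viral proteins, and D cyclins and several inhibitors are also controlled by protein breakdown, which an RNA array does not see.

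The design holds 1 group, hence no conditions to compare, and no test was run. The question the arrays can answer is which of these genes gave a signal above background, and how closely the replicates agree. As background level, each array's 95th percentile over 77 genes typical of liver, brain, muscle, eye and similar tissues was taken. Replicate 1 had a level of 5.94 (log2; an intensity of 61.3), and replicate 2 one of 5.93 (61.2). A gene is called above background when its brightest probe set exceeds the level on both arrays, though transcription below that level is possible. By this call 8422 of 16716 genes (50.4%) were above background. Probe sets differ in how well they bind their target, so signals of different probe sets or genes are not set against each other as amounts of RNA. Of the markers of the labelled cell type, 9 of 9 measured B-cell genes were above background, among them MS4A1, which encodes CD20 (log2 signals 13.12 and 13.26), and CD79A (11.32 and 11.27). Of 33 measured markers of other cell types 2 were above it: COL1A1 among 8 fibroblast genes (7.35 and 7.13) and CDH1 among 7 epithelial genes (7.04 and 6.98), with 0 of 9 T-cell genes (CD3D 5.09 and 4.80, CD3E 4.51 and 4.46) and 0 of 9 myeloid genes (CD14 3.82 and 3.72, LYZ 3.72 and 3.72). COL1A2 (4.98 and 5.09), EPCAM (3.98 and 3.78) and KRT8 (5.19 and 5.19) were not above it. S100A9 among the myeloid genes (5.66 and 5.89) and DCN among the fibroblast genes (5.79 and 5.80) lay just under it. The part of other cells in the values below was not tested.

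Of the 9 members with probe sets 8 were above background, and CCND1 was the exception. The 50.4% of all genes so called is the measure for this count. The share called was larger for genes with more probe sets, from 40.0% of genes with 1 probe set to 58.8% with 2, 68.2% with 3 and 71.9% with 4, and members had between 1 and 4. Of the 19 member probe sets 15 were above the level on both arrays, where 45.6% of all named probe sets were. The median log2 signal of the 9 members was 10.86, against 6.10 over all genes, each gene by its brightest probe set. These medians are array signals and not amounts of RNA. They were not matched for number of probe sets, which was at least 2 for 6 of the 9 members and for 7350 of 16716 genes. In a bulk sample a low signal can come from fewer cells that express a gene or from less RNA in each cell, and these cannot be told apart.

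**Figure D1:**
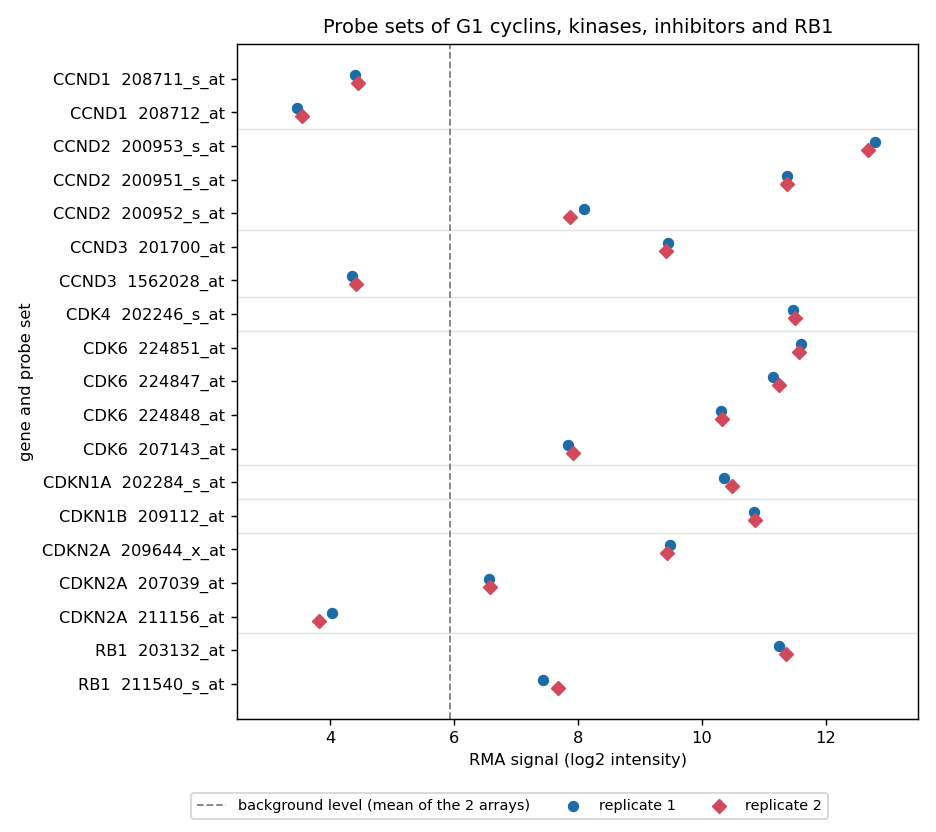
RMA signal of each of the 19 member probe sets (log2 intensity, horizontal axis) on the array of replicate 1 (circles) and of replicate 2 (diamonds), with probe sets grouped by gene on the vertical axis and the mean background level of the arrays as a dashed line. Both CCND1 probe sets, 1 of 2 for CCND3 and 1 of 3 for CDKN2A lie left of the line, and the other 15 lie right of it.

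The D cyclins, the regulatory partners of CDK4 and CDK6, divided into 1 gene at background and 2 above it. CCND1, the D cyclin of many epithelial and mesenchymal cells, had intensities of 21.2 in replicate 1 and 21.8 in replicate 2 by probe set 208711_s_at, and 11.0 and 11.6 by 208712_at. Both probe sets were below the level on both arrays, by 1.54 and 1.49 on the log2 scale for the brighter one. CCND2, the D cyclin whose gene the viral factor EBNA2 is known to switch on in B cells, had intensities of 7128 and 6591 by probe set 200953_s_at. Its other probe sets gave 2662 and 2657 (200951_s_at) and 273 and 235 (200952_s_at). All 3 lay above the level, the dimmest at 4.45 times it in replicate 1 and 3.84 times in replicate 2. CCND3, the D cyclin most used by lymphocytes, had 700.1 and 687.5 by probe set 201700_at, 11.4 and 11.2 times the level. Its second probe set, 1562028_at, gave 20.3 and 21.2, below the level on both arrays.

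Both kinases of the switch were above background by every probe set. CDK4 had intensities of 2855 and 2899 by its 1 probe set, 202246_s_at, 46.6 and 47.4 times the level. CDK6, the kinase most used in blood cells, had 3112 and 3038 by probe set 224851_at. The next probe sets of CDK6 gave 2276 and 2426 (224847_at) and 1274 and 1284 (224848_at), and the fourth gave 228 and 241 (207143_at). The fourth is the only one of the 4 for which the annotation gives a RefSeq messenger RNA as its sequence, and it was 3.72 and 3.94 times the level. On the log2 scale the 4 means spanned 3.71, whereas the replicates of any 1 of them differed by 0.09 at most.

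The CIP/KIP inhibitors were both above background. CDKN1A, which encodes p21 and is switched on by p53, had intensities of 1314 and 1437 by probe set 202284_s_at, with the higher value in replicate 2. CDKN1B, which encodes p27, the inhibitor that holds resting lymphocytes out of the cycle, had 1842 and 1863 by probe set 209112_at. These were 30.0 and 30.5 times the level, so messenger RNA of both inhibitors gave signal in the same samples as that of CCND2, CCND3, CDK4 and CDK6.

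CDKN2A was above background, but its 3 probe sets gave different calls. The locus makes p16 (INK4A) and, from another first exon in another reading frame, the p53-stabilising protein ARF. Probe set 209644_x_at had intensities of 716 and 695, and 207039_at had 94.3 and 95.3, above the level by 0.62 and 0.64 on the log2 scale. The third, 211156_at, had 16.2 and 14.1 and lay below the level on both arrays. The suffix _x_at marks a set whose probes may also bind other transcripts, so the brightest value is uncertain. Without probe sets of that kind, and without those marked _s_at, whose probes may match several transcripts of a gene or family, CDKN2A was still above background by 207039_at. The files do not say which exons the probes lie in, so p16 and ARF were not separated.

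RB1, the target of the kinases, was above background by both probe sets. Probe set 203132_at had intensities of 2428 and 2626, and 211540_s_at had 172 and 205. The second was at 2.81 and 3.35 times the level, and both were higher in replicate 2.

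Probe sets of 1 gene differed more than the replicates did. Among the 6 members with at least 2 probe sets, all were above in 3 (CCND2, CDK6 and RB1), some in 2 (CCND3 and CDKN2A) and none in CCND1. Over all 7350 genes with at least 2 probe sets, every one was above in 31.0%, none in 36.4% and some in 32.6%. The mean log2 signals of the 2 CCND3 probe sets were 5.06 apart, more than in 94.6% of the 4153 genes with 2 probe sets, whose median was 0.93. For RB1 the distance was 3.75, more than in 88.4% of those genes, and for CCND1 it was 0.92. For CDKN2A it was 5.54 and for CCND2 4.76, against a median of 2.03 over the 1880 genes with 3 probe sets. For CDK6 it was 3.71, against a median of 2.79 over the 778 genes with 4. All 7 member probe sets for which the annotation gives a RefSeq messenger RNA were above the level, as were 8 of the other 12. Over all named probe sets with deposited values, 50.2% of the 9503 of the first kind and 43.4% of the other 19990 were.

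The replicate arrays agreed closely on the members. The 19 differences (log2, replicate 2 minus replicate 1) ran from -0.22 to 0.25 with a median of 0.02, and 12 were higher in replicate 2. The widest were those of RB1 by 211540_s_at (0.25), CCND2 by 200952_s_at (-0.22) and CDKN2A by 211156_at (-0.21). None exceeded the 95th percentile of absolute differences among all probe sets in the same bin of mean signal (5 bins of equal size), which was 0.36 in the bin that holds the first 2 of these and 0.47 in that of the last. In the brightest bin the largest member differences were CDKN1A (0.13), RB1 by 203132_at (0.11) and CCND2 by 200953_s_at (-0.11), where the median absolute difference of all probe sets was 0.05 and the 95th percentile 0.19. Both RB1 probe sets were higher in replicate 2, and all 3 CCND2 probe sets were higher in replicate 1, 200951_s_at by less than the others (-0.0025). The labels do not state whether the replicates were grown separately, so this spread may be technical.

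**Figure D2:**
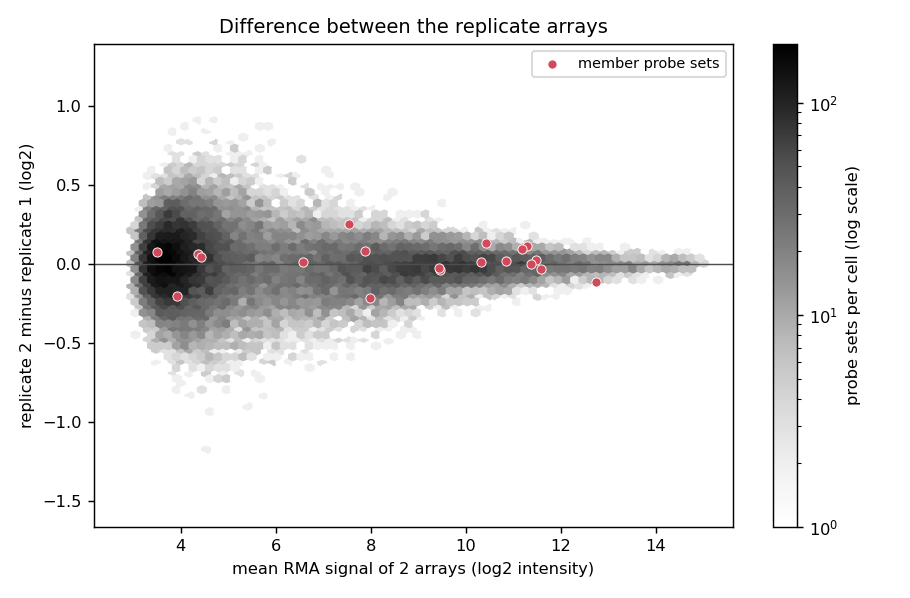
Difference between the arrays (log2, replicate 2 minus replicate 1, vertical axis) against the mean log2 signal (horizontal axis) for all 36289 probe sets, shaded by their number per cell on a log scale, with the 19 member probe sets as red points. The member points lie between -0.22 and 0.25, inside the cloud of all probe sets.

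Other genes of the pathway were mostly above background, in 48 of 54 measured cases of 58 listed, beside 50.4% of all genes. That share applies to the counts by role below as well, and it was 40.0% for genes with 1 probe set and between 58.8% and 71.9% for those with 2 to 4. Their median log2 signal was 9.48. The 6 that were not above it included 3 of the 4 other inhibitor genes: CDKN1C, which encodes p57 (19.1 and 20.1 by the brightest of 5 probe sets), CDKN2B, which encodes the INK4 protein p15 (13.7 and 13.0), and CDKN2D, which encodes p19 (31.5 and 35.5 by the brighter of 2). The fourth, CDKN3, a phosphatase that acts on CDK2, was above background (1885 and 1890), as were CDKN1A, CDKN1B and CDKN2A among the members. The remaining 3 were LIN9, a subunit of the MuvB complex (12.4 and 12.3), the activator E2F2 (33.1 and 27.0) and CCNA1, a cyclin best known from the germ line (31.9 and 39.5).

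Relatives of RB1, the MuvB complex that binds them, MYBL2, and the E2F and DP factors were above background in 13 of 15 measured cases. Of 6 measured genes for pocket proteins, MuvB subunits or MYBL2, 5 were above background. Among them were RBL1, which encodes p107 (247 and 264), and RBL2, which encodes p130 (738 and 765). Of 9 measured E2F and DP genes 8 were, including E2F1, the activator held by RB1 (94.1 and 88.3, both probe sets above). For E2F2 the 1 probe set used had log2 signals of 5.05 and 4.76, under the level on both arrays.

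The E and A cyclins, the E2F targets and the enzymes and chaperones that activate, fold or destroy parts of the switch were above background in 34 of 35 measured cases. Of 8 genes for E and A cyclins, their kinase and its phosphatases 7 were, such as CCNE1 (554 and 569) and CCNE2 (687 and 664), which encode the cyclins that follow the D cyclins. All 10 measured G1/S targets of E2F were, such as CDC6, which loads the replicative helicase (365 and 354), and CDT1, its partner (189 and 175). All 5 genes of the kinase that activates CDKs and of the chaperones that fold CDK4 were, such as CDK7 (1089 and 1087) and CCNH (1669 and 1645). All 12 genes of the ubiquitin ligases that destroy cyclins and inhibitors were, including SKP1 (11589 and 12182) and SKP2, the subunit that recognises p27 (1028 and 1075). The SKP2 values, like those of MS4A1 above, come from a probe set marked _x_at. Of the 3 SKP2 probe sets 2 were above the level, and for FBXO4, FBXO31 and AMBRA1 it was 1 of 2 each.

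**Figure D3:**
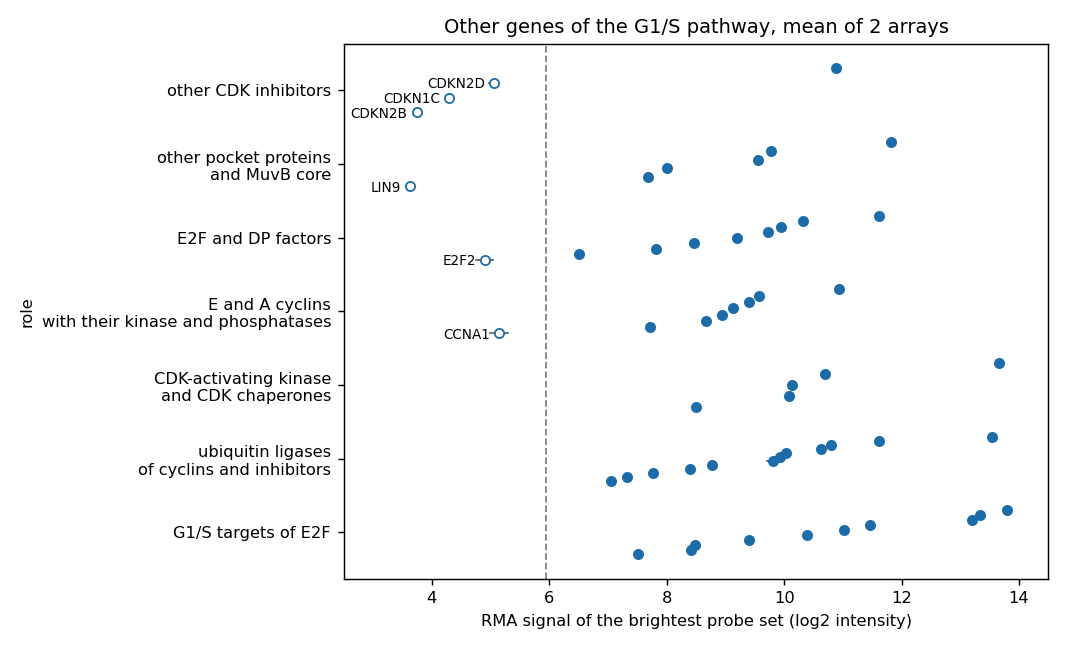
Mean RMA signal of the brightest probe set (log2 intensity, horizontal axis) for the 54 measured pathway genes, grouped by role on the vertical axis, with a line joining the values of the 2 arrays and the mean background level dashed. Filled points are the 48 genes above background on both arrays, and the 6 open points, with their symbols, are those that were not.

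Genes beside the members on the chromosome were called about as often as genes in general. Taking the nearest measured gene on each side in the RefSeq gene order, 12 of 20 were above background, beside 50.4% of all genes. CCND1, itself at background, lay between LOC338694 (3.93 and 4.11) and FGF19, a hormone of the gut (3.87 and 4.01), neither above it. CCND2 lay between PARP11, not above it (5.46 and 5.58), and TIGAR, a p53 target that restrains glycolysis (10.42 and 10.37). The 2 neighbours of CDKN2A, the antisense genes CDKN2A-AS1 (3.66 and 4.01) and CDKN2B-AS1 (3.44 and 3.37), overlap it and were not above background, and CDKN2B was not either. LPAR6, a receptor gene that lies within RB1, was not above background (4.30 and 4.30), nor was RB1-DT on its other side (4.03 and 4.31). For CDK4 the neighbour TSPAN31, which overlaps it, was above background (9.87 and 9.85). CDKN2C, with no probe set of its own by the rule, lay between FAF1 (9.90 and 9.97) and RNF11 (9.58 and 9.59), both above.

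The number of CG dinucleotides, the sites of DNA methylation, varied between the starts of the members. RefSeq windows of 300 bases (250 before and 50 after a gene's start, build GRCh38.p14) were matched by symbol for 8 of the 10 members, with 14 windows in all. CCND1 and CCND2 had no entry. The 14 windows had a median of 28.5 CG dinucleotides, against 26 in windows of genes above background, 12 in windows of measured genes not above it, and 14 in all 35116 windows. CDK4 had 23, CDKN1A and CDKN1B 29 each, and CDK6 29 and 37 in its windows. CDKN2C had 8, 37 and 11 in its windows. RB1 had 0, in a window that lies inside the gene and not at its first start.

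CCND3 and CDKN2A are shown because their probe sets gave different calls and each gene has more than 1 start. The CCND3 windows lie on the minus strand of chromosome 6, at chr6:41941759-41942058 (start 2, 37 CG dinucleotides) and chr6:41939156-41939455 (start 3, 3 of them). The CDKN2A windows lie on the minus strand of chromosome 9, at chr9:21995275-21995574 (the upstream start, from which ARF is made, 28 of them) and chr9:21974808-21975107 (the start of p16, 26 of them). Sequences run 5′ to 3′ along the gene, with CG in capitals.
CCND3 start 2: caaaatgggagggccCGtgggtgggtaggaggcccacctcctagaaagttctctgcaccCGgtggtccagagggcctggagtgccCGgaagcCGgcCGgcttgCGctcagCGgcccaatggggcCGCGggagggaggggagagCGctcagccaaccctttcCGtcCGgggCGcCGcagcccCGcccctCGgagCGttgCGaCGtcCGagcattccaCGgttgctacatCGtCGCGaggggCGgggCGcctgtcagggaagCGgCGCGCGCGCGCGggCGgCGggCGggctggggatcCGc
CCND3 start 3: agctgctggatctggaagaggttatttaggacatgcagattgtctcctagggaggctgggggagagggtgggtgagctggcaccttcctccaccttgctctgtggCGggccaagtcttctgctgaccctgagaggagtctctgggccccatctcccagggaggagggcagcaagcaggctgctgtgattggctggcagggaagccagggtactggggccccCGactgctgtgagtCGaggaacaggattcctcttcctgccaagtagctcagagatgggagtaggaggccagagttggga
CDKN2A upstream start: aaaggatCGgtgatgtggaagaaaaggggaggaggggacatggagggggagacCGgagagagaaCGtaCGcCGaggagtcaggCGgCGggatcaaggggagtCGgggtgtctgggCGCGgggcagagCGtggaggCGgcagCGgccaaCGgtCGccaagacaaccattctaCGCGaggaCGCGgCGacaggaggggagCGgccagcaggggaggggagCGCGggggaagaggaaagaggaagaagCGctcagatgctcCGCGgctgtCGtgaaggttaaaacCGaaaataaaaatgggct
CDKN2A p16 start: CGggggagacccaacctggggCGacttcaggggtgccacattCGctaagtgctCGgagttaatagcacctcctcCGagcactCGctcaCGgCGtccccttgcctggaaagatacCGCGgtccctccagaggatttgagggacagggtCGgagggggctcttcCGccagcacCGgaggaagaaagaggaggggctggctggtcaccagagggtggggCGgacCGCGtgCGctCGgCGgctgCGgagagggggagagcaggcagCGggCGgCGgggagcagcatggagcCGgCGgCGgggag

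The CDKN2A windows are alike in CG number, and the CCND3 windows are not. Start 1 of CCND3 had 29. No probe set could be tied to a start from these files.

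**Figure D4:**
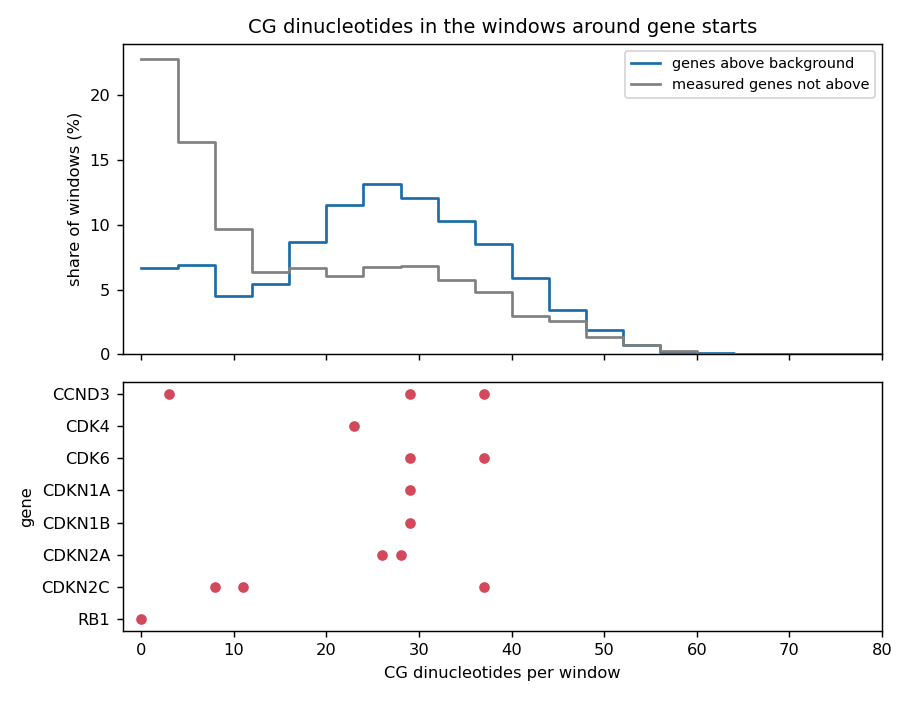
Upper panel: share of RefSeq windows around gene starts (percent, vertical axis) by number of CG dinucleotides per 300-base window (horizontal axis, bins of 4), for genes above background and for measured genes not above it. Lower panel: the 14 windows of 8 members, 1 red point each, of which 10 hold at least 23 and the other 4 (1 of CCND3, 2 of CDKN2C and the internal window of RB1) hold 11 or fewer.

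E2F sites were looked for as the letters TTGGCGC and TTCCCGC on both strands. They occurred in 9.23% of all windows, in 14.0% of those of genes above background and in 8.71% of those of measured genes not above it. Of the 14 member windows 1 held them, at start 2 of CDKN2C on the plus strand of chromosome 1, chr1:50968456-50968755, which encodes the INK4 protein p18. It had 2 matches, TTCCCGC on each strand, shown in capitals. A match describes the letters and is not evidence of binding.
CDKN2C start 2: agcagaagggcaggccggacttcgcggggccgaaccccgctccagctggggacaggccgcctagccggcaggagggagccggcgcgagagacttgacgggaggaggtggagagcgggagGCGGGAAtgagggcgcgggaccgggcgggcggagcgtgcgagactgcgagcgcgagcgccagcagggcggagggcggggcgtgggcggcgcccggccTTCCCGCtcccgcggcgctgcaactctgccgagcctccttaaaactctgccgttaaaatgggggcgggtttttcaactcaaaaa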

How the data were processed

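The intensities deposited by the authors are 1 value per probe set and array for 36289 probe sets, made with RMA per the submitters' processing notes. RMA corrects background, quantile-normalizes the arrays and summarises the probes of each set. Its version and any genome build are not given in the sources used here. Values ran from 6.29 to 33093, so the scale is linear and log2 values were computed here. Quantile normalization gives the arrays nearly the same distribution, so a change in total RNA cannot be seen, and the number of arrays limits the precision. Of the probe sets 29493 had 1 symbol in the platform annotation, 1407 several and 5389 none. For 29461 the Entrez ID was found in RefSeq's GRCh38.p14 table, and the symbol given there was used. The probe set of highest mean log2 signal stood for a gene. Members, lists and levels were chosen with earlier results of these data known. Named genes were all members, the first 2 measured of each role or marker list, pathway genes not above background, and markers of other cell types above it. CDKN3, MYBL2, CDC25C, FBXO4, FBXO31, AMBRA1, S100A9, DCN, neighbours and widest differences were named after their values were seen. Python 3.11.15, numpy 2.4.6 and pandas 2.3.3 were used. No test between groups was run. The alternatives tried were other background levels, leaving out probe sets marked _x_at or _s_at, the median of a gene's probe sets, a second quantile normalization, an offset of 16 before the log2, and leaving out each array. Protein sequences were not used here.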

Additional observations from a re-analysis of the deposited data

How the results depend on the processing

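The call of CCND1 as the only measured member not above background held in 7 of 8 alternatives, those that left out either array included (8 of 9 members above without replicate 1 and without replicate 2). The 99th percentile of reference genes lies between MBP and KRT10, both above background here. At that level 11.0% of all genes and 8.18% of all named probe sets were above background. There 5 of 9 members (not CCND1, CCND3, CDKN1A or CDKN2A) and 7 of 19 member probe sets were above it. So were 15 of 54 pathway genes and 2 of 20 neighbours. Without probe sets marked _x_at or _s_at fewer genes could be measured. CCND2, CDK4 and CDKN1A, whose probe sets are all marked _s_at, dropped out, so their calls rest on such probe sets alone. Then 5 of 6 members, 8 of 11 member probe sets and 31 of 38 pathway genes were above background. The shares over all genes and all named probe sets in that setting were 44.5% and 39.7%. The pathway genes CDC25C and AMBRA1 were not above background there. AMBRA1 was not above it with the median of a gene's probe sets either. With the 75th percentile as the level, 51 of 54 pathway genes were above background, beside 61.8% of all genes. Those not above it were then CDKN1C, CDKN2B and LIN9, so the calls of CDKN2D, E2F2 and CCNA1 depended on the level. The other alternatives left these counts within 1.5 times their values, and the median difference between the arrays over member probe sets ran from 0.0159 to 0.0296. Taking the median of a gene's probe sets moved the level of the 6 members with several probe sets by more than 1 SD, and changed the call of none. No paired analysis was possible because there is 1 group. Signal over background limits the calls near the level, such as CDKN2A by 207039_at.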
